A study of Homo sapiens with 6 samples.

Results

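The 10 genes described here encode most of the switch that turns NF-kappaB transcription on and off: the 5 subunits NFKB1, NFKB2, REL, RELA and RELB, the 3 classical inhibitors NFKBIA, NFKBIB and NFKBIE, the deubiquitinase TNFAIP3, known as A20, and the kinase IKBKB, known as IKKbeta. These members were measured on single-colour Phalanx OneArray microarrays in flasks of NCI-H446, an established human cell line labelled as small cell lung cancer. A member was read from every probe whose annotated symbol was that gene alone, which gave 12 probes of the 31741 on the array, with 2 probes each for NFKB2 and NFKBIB and 1 for each of the others. Counted as genes they were 10 of 18336. The 3 control flasks, called control 2, 5 and 6 in the labels, each received 15 µl of DMSO, the solvent, and the 3 drug flasks, called drug 1, 3 and 4, received a chemotherapy drug that the labels leave unnamed, at a concentration that was the same in all 3 but is not stated. Its exposure time is not stated either. The label fields conflict: the characteristics give NCI-H446 for all 6 flasks and 15 µl for all controls, whereas the source names give NCI-H447 for drug 3, NCI-H448 for drug 4, and 16 and 17 µl for control 5 and control 6. The characteristics were followed, and results without each of these arrays are among the alternatives. Whether the drug flasks also held DMSO is not stated. The comparison asks which genes differ after treatment.

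NF-kappaB proteins bind DNA as pairs of subunits that share a Rel homology domain. RELA, REL and RELB carry a transactivation domain, whereas NFKB1 and NFKB2 are made as long precursors that hold partners in the cytoplasm and are processed to the DNA-binding forms. In the canonical arm, receptors for cytokines such as TNF and IL-1 activate the kinase complex of IKKbeta, which marks the IkB inhibitors for destruction and frees RELA pairs. In the alternative arm, the kinase NIK acts through IKKalpha on the NFKB2 precursor, which releases pairs with RELB. Several inhibitor genes of the pathway are themselves NF-kappaB targets in textbook accounts, which is a negative feedback loop.

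That feedback is read through kappaB sites in DNA, so the promoters of the members were searched on both strands, within 250 bases before each RefSeq start on GRCh38.p14. The letters GGGANTTTC and the looser kappaB consensus, which can match at the same place, were used. Promoter windows were found for 7 of the 10 members, 12 windows in all; NFKBIE, RELB and IKBKB had none in the table used. GGGANTTTC was present for 6 of those 7 members, all but RELA, and for 1.37% of all 27305 genes with a window. Counted as windows, it was in 6 of the 12 and in 1.12% of all 35116. The kappaB consensus was present for the same 6 members and for 11.8% of all genes, and in 7 of the 12 windows and 9.96% of all. The match nearest to the start is printed 5′ to 3′ on the strand of the gene, credited to RefSeq, with GGGANTTTC or its complement in capitals. Of the members printed, NFKB2 was higher with the drug in the test below. NFKB1 and NFKBIA were lower, and REL, NFKBIB and TNFAIP3 did not pass. NFKBIE, also higher, had no window, and whether the letters bear on a gene's direction was not tested.
NFKB1: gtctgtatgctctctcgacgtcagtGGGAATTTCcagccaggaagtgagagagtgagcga
NFKB2: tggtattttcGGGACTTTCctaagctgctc
REL: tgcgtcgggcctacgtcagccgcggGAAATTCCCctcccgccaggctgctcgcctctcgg
NFKBIA: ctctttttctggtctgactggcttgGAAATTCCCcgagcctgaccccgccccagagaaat
NFKBIB: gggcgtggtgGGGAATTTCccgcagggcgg
TNFAIP3: cgtgactttgGAAAGTCCCgtggaaatccc
The windows lie at chr4:102501285-102501344 (plus strand) for NFKB1, chr10:102395674-102395703 (plus) for NFKB2, chr2:60881504-60881563 (plus) for REL, chr14:35404795-35404854 (minus) for NFKBIA, chr19:38899931-38899960 (plus) for NFKBIB and chr6:137867183-137867212 (plus) for TNFAIP3. Read on the strand that spells the motif, NFKB1, REL, NFKBIA and NFKBIB share the letters GGGAATTTC, and NFKB2 and TNFAIP3 share GGGACTTTC. The match began 49 bases before the start for NFKB1, 45 for REL, 80 for NFKBIA, 28 for NFKBIB, 66 for TNFAIP3 and 21 for NFKB2. NFKBIA held 2 matches in its window. The stretches of NFKB2, NFKBIB and TNFAIP3 are printed at 30 bases and the others at 60. A match is a stretch of letters and was not measured as a bound site in these cells.

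Values below are intensities on a linear scale after quantile normalization between the 6 arrays, in arbitrary units. They compare 1 probe across arrays and not 1 gene with another. A difference is the mean log2(intensity + 1) of the drug arrays minus that of the control arrays. It was tested with limma, and the p-values were adjusted over all 31741 probes by the Benjamini-Hochberg method, with a call at an adjusted p below 0.05. As total RNA of whole flasks was measured, less RNA per cell and fewer cells that hold an RNA cannot be told apart.

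Of the 10 members, 4 passed the test, 2 of them higher with the drug (NFKB2 and NFKBIE) and 2 lower (NFKB1 and NFKBIA). Over all genes 35.1% passed, 17.6% higher and 17.5% lower, so the count of members lies near the background of these arrays, and the size and direction of single members carry the description that follows. The median difference of the members was 0.061 on the log2 scale, and that of all genes was 0.0075. For 7 members the 3 drug arrays lay wholly on one side of the 3 control arrays, against 47.0% of all genes. None of the 12 probes had a group mean under the lower quartile of the array, an intensity of 115, which is called dim below.

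**Figure D1:**
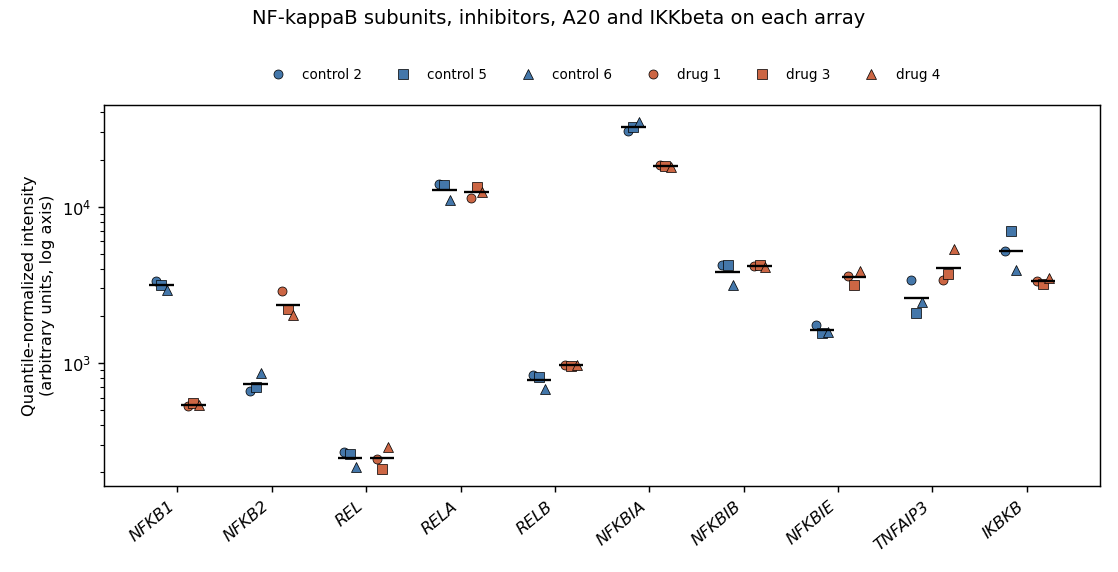
Quantile-normalized intensity (log axis, arbitrary units) of the 10 members, each on its brightest probe. Points are the 6 arrays, and black bars are the group means, averaged on the log2 scale. NFKB1 sits between 2951 and 3334 on the control arrays and between 530 and 555 on the drug arrays, whereas NFKB2 moves from between 658 and 866 to between 2031 and 2884.

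The 2 precursor subunits moved in opposite directions. NFKB1, the p105 precursor of p50 and a partner of RELA, had intensities of 3334, 3165 and 2951 in the control flasks (2, 5 and 6, in that order), and 530, 555 and 540 in the drug flasks (1, 3 and 4). Every control array was far above every drug array, and the drug arrays lay close together. NFKB1 fell from a mean log2 intensity of 11.62 ± 0.088 (SD, n = 3) to 9.08 ± 0.034 (n = 3), a 5.80-fold lower level (log2 difference -2.54, SE 0.112, adjusted p = 1.76e-05).

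NFKB2, the p100 precursor of p52 in the alternative arm, gave 658, 707 and 866 in the control flasks, and 2884, 2218 and 2031 in the drug flasks. All drug arrays were above all control arrays, with drug 1 the highest. It rose from 9.53 ± 0.21 (SD, n = 3) to 11.20 ± 0.26 (n = 3), which is 3.18-fold (log2 difference 1.67, SE 0.178, adjusted p = 0.000443). The second NFKB2 probe read 185, 162 and 230 on the control arrays and 649, 549 and 587 on the drug arrays. Its rise of 3.11-fold (log2 difference 1.64, SE 0.161, adjusted p = 0.000318) lay within the error of the first probe. With 50 added before the logarithm in place of 1, the folds were 3.04 and 2.67 for the NFKB2 probes and 5.40 for NFKB1.

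The 3 subunits with a transactivation domain did not pass the test. RELA, the main activating subunit of the canonical arm, had intensities of 13965, 13758 and 11094 in the control flasks, and 11421, 13340 and 12490 in the drug flasks. These ranges overlapped, and the log2 difference was -0.055 with a 95% interval from -0.39 to 0.28 (adjusted p = 0.835). REL, the c-Rel subunit best known from lymphocytes, read 268, 264 and 215 on the control arrays and 244, 211 and 291 on the drug arrays. Its groups overlapped too, with a log2 difference of -0.0048 and an interval from -0.39 to 0.38 (adjusted p = 0.989). The intervals of RELA and REL reach no further than 0.39 from 0, so a change as large as that of NFKB1 or NFKB2 lies outside them.

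RELB, the partner of p52, read 837, 813 and 686 in the control flasks, and 971, 954 and 973 in the drug flasks. Each drug array was above each control array, but the step was small. Its log2 difference was 0.32 (SE 0.124, 95% interval from 0.024 to 0.61), and the adjusted p of 0.102 missed the threshold.

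**Figure D2:**
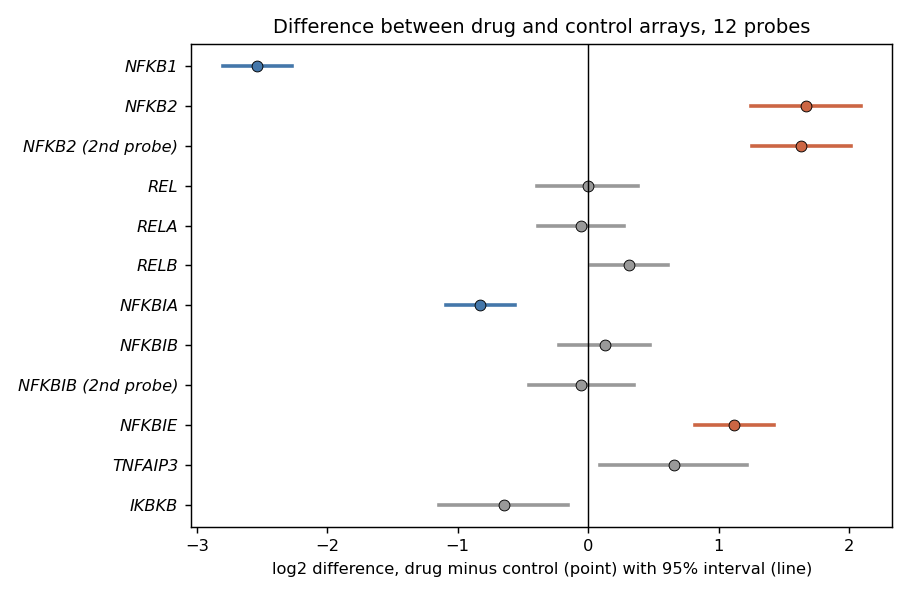
Log2 difference between drug and control arrays (points) with its 95% interval (lines) for the 12 probes of the 10 members. Orange and blue mark probes higher and lower with the drug at an adjusted p below 0.05, and grey marks the rest. The probes of NFKB1 and NFKB2 lie farthest from 0, at -2.54 and 1.67.

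Among the inhibitors, NFKBIA fell, NFKBIE rose and NFKBIB did not pass. NFKBIA encodes IkBalpha, the inhibitor that is broken down within minutes of a signal and made again from the newly activated gene. Its probe read 30372, 32194 and 34570 in the control flasks, and 18597, 18074 and 17990 in the drug flasks. The drug arrays lay close together and below every control array. NFKBIA fell from 14.98 ± 0.094 (SD, n = 3) to 14.15 ± 0.026 (n = 3), 1.77-fold (log2 difference -0.83, SE 0.113, adjusted p = 0.00131).

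NFKBIE encodes IkBepsilon, an inhibitor that acts mainly on pairs with RELA or REL. It had intensities of 1757, 1560 and 1582 in the control flasks, and 3601, 3178 and 3903 in the drug flasks. The groups stood wholly apart. It rose from 10.67 ± 0.094 (SD, n = 3) to 11.79 ± 0.15 (n = 3), 2.17-fold (log2 difference 1.12, SE 0.129, adjusted p = 0.000624).

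NFKBIB, which encodes IkBbeta, read 4228, 4206 and 3167 in the control flasks, and 4200, 4219 and 4129 in the drug flasks on its brighter probe. Control 6 was the only array apart from the others. Its log2 difference was 0.13 (95% interval from -0.22 to 0.47, adjusted p = 0.61). The second probe had 815, 1156 and 1174 on the control arrays and 1029, 1046 and 921 on the drug arrays, with a difference of -0.052 (interval from -0.46 to 0.35, adjusted p = 0.871). Neither NFKBIB probe separated the groups.

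TNFAIP3 and IKBKB lay near the threshold, and the call of each changed when a single array was left out. TNFAIP3, the A20 enzyme that edits ubiquitin chains on upstream adaptors and so shuts the signal off, read 3376, 2091 and 2457 in the control flasks, and 3385, 3725 and 5382 in the drug flasks. Drug 1 barely exceeded control 2, so the groups were apart by less than the spread within either. The log2 difference was 0.66 (SE 0.239, 95% interval from 0.092 to 1.22, adjusted p = 0.0809). Without control 2 it was 0.85 (adjusted p = 0.0334), and without drug 4 it was 0.46 (adjusted p = 0.202).

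IKBKB, the kinase that phosphorylates the IkB inhibitors, had intensities of 5170, 7026 and 3942 in the control flasks, and 3327, 3210 and 3494 in the drug flasks. All drug arrays were below all control arrays, and the control arrays were spread far more widely than the drug arrays (SD 0.417 against 0.0616 on the log2 scale). Its log2 difference was -0.65 (SE 0.21, 95% interval from -1.14 to -0.15), with an adjusted p of 0.0542. Without control 6 the difference was -0.85 (adjusted p = 0.0133), and without control 5 it was -0.43 (adjusted p = 0.112). Setting aside dim probes or using an intensity trend in the variance left the difference of IKBKB at -0.65 and put its adjusted p at 0.0324 and 0.0358.

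**Figure D3:**
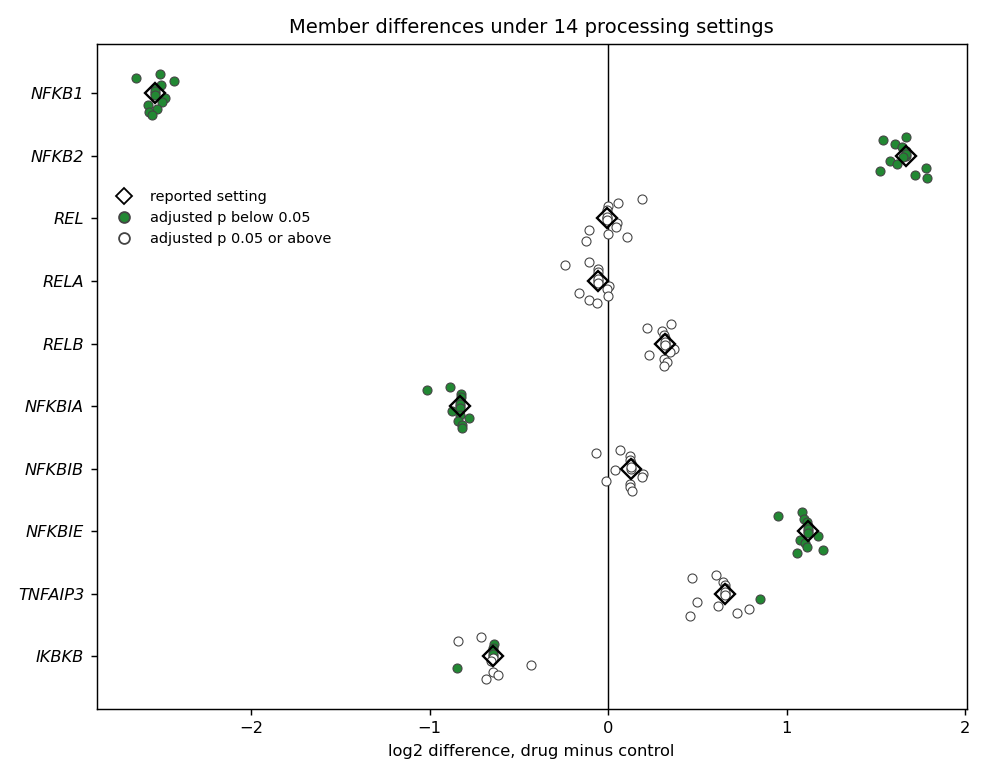
Log2 difference, drug minus control, of the 10 members in the reported setting (diamond) and in 13 alternatives (points, spread vertically for legibility), which include leaving out each array. Filled points have an adjusted p below 0.05. NFKB1, NFKB2, NFKBIA and NFKBIE are filled throughout, whereas IKBKB is filled in 5 alternatives and TNFAIP3 in 1.

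The other genes of the pathway were read from 4 lists of 102 genes, of which 99 were measured. Of these, 18 were higher and 20 lower with the drug, which is 18.2% and 20.2%, against 17.6% and 17.5% of all genes. With median centring of the arrays in place of quantile normalization, 9 were higher and 21 lower, and over all genes 12.7% were higher and 17.8% lower. Without drug 1, and likewise without drug 3, 11 were higher, and over all genes 13.5% and 13.6% were.

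**Figure D4:**
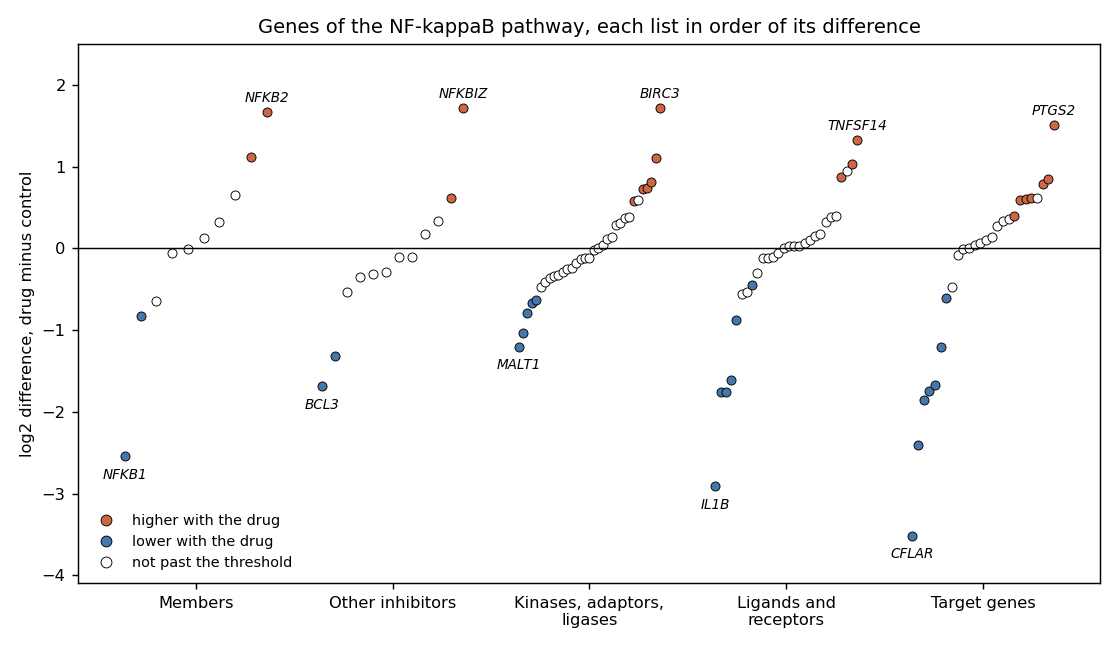
Log2 difference, drug minus control, of the 10 members and of the genes in 4 further lists, sorted within each list; each point is a gene on its brightest probe. Coloured points passed the test, and the labelled ends run from CFLAR at -3.51 to NFKBIZ and BIRC3 at 1.72.

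Of 12 other inhibitors, 2 were higher and 2 lower, with a median log2 difference of -0.20. NFKBIZ, a nuclear IkB-like protein that helps switch on secondary target genes, read 1505, 1292 and 1565 on the control arrays and 4445, 3960 and 6190 on the drug arrays, and rose 3.29-fold (log2 difference 1.72, adjusted p = 0.000507). BCL3, a nuclear IkB-like partner of p50 and p52, gave 1157, 759 and 1428 against 361, 328 and 318, and fell 3.21-fold (log2 difference -1.68, adjusted p = 0.00132). These 2 nuclear members of the IkB family thus moved in opposite directions, as NFKBIE and NFKBIA did. NFKBID, another IkB family gene of this list, and NFKBIB did not pass, at -0.10 and 0.13 (adjusted p = 0.612 and 0.61). PDLIM2, a ubiquitin ligase for nuclear RELA, fell by 1.32 on the log2 scale, and NKRF, a repressor that binds DNA at some targets, rose by 0.62. PDLIM2 fell on 2 of its 3 probes, and its remaining probe, which was dim, did not pass. NKRF lost its call with median centring (adjusted p up to 0.148 over all alternatives) and without drug 1 or drug 3.

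Of 33 measured kinases, adaptors and ubiquitin ligases, 6 were higher and 5 lower, with a median of -0.11. Among the lower ones, TRAF1 was dim in both groups and kept its call in 6 of its 12 alternatives. BIRC3, the ligase cIAP2, read 878, 822 and 1026 on the control arrays and 3269, 2718 and 2981 on the drug arrays, and rose 3.29-fold (log2 difference 1.72, adjusted p = 0.000137). MAP3K14, which encodes NIK, gave 3114, 3042 and 2845 against 6117, 6685 and 6515, and rose 2.15-fold (log2 difference 1.10, adjusted p = 0.000365). MALT1, the protease and scaffold of antigen receptor signalling, fell by 1.20 on the log2 scale. IRAK1, a kinase of interleukin 1 and Toll-like receptors, fell by 1.04, and RNF31, the catalytic ligase of the linear ubiquitin complex, rose by 0.81. RNF31 lost its call with median centring alone among the alternatives (adjusted p = 0.117).

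The components known for the alternative arm were set side by side after their values had been seen. NIK is kept low by a ligase complex of TRAF2, TRAF3, BIRC2 and BIRC3, and it activates CHUK, which encodes IKKalpha. MAP3K14, BIRC3 and NFKB2 were higher, as above, and RELB did not pass (log2 difference 0.32, adjusted p = 0.102). These are RNA values, and neither NIK protein nor processing of the NFKB2 precursor was measured. CHUK read 5342, 5597 and 5457 on the control arrays and 10085, 9921 and 7597 on the drug arrays, and rose by 0.74 (95% interval from 0.40 to 1.08, adjusted p = 0.00685), a call that was lost with median centring (adjusted p = 0.0749). TRAF3 had 1017, 900 and 765 against 519, 520 and 651, and fell by 0.66 (adjusted p = 0.0167), a call that was lost with the deposited values and without drug 1 or drug 3 (adjusted p up to 0.09). TRAF2 and BIRC2 did not pass, at differences of -0.0018 and -0.48 (adjusted p = 0.995 and 0.138), and BIRC2 passed without drug 4 (0.033). In the canonical kinase complex, IKBKG, the regulatory subunit NEMO, did not pass on either probe, with a difference of 0.034 (95% interval from -0.39 to 0.46) on the brighter one.

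Of 28 ligands and receptors, 3 were higher and 6 lower, with a median of 0.010. IL1B, the cytokine interleukin 1 beta, fell 7.49-fold (log2 difference -2.91, adjusted p = 4.04e-05), from 21845, 23374 and 16500 on the control arrays to 2749, 2427 and 2998 on the drug arrays. IL1A, interleukin 1 alpha, fell 3.38-fold, and IL33, another member of that family, fell by 1.61 on the log2 scale to a dim level. TNFRSF1A, the main TNF receptor, read 28550, 24836 and 31843 against 7258, 7792 and 10279. It fell by 1.76 on its brighter probe and by 1.75 on the other. TNFRSF1B, another TNF receptor, picked after its values had been seen, rose by 0.87 and 0.88 on its 2 probes (adjusted p = 0.00244 and 0.00143). TNFSF14, a ligand of the lymphotoxin beta receptor known as LIGHT, rose by 1.33 and 1.06 on its 2 probes. Of the other receptors of the alternative arm, also picked after their values had been seen, CD40 rose by 1.03 and 1.36 on its 2 probes and LTBR fell by 0.88. Among further receptors that can signal through that arm, TNFRSF12A and TNFRSF13C did not pass, at -0.56 and 0.066, and TNFRSF11A gave 0.17 on its brightest probe, which did not pass, and 0.65 on another, which did. IL18, of the same family as IL1A, IL1B and IL33 and likewise picked afterwards, did not pass (adjusted p = 0.996).

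Of 26 textbook target genes, 7 were higher and 7 lower, with a median of 0.079. CFLAR, the caspase 8 inhibitor c-FLIP, fell 11.4-fold on its brighter probe, from 10556, 10127 and 11185 to 990, 1019 and 792 (log2 difference -3.51, adjusted p = 1.44e-05), but by 0.51 on the log2 scale on the other (adjusted p = 0.0383). The chemokine CCL2 fell on its 2 probes, at log2 differences of -2.41 and -2.77, and the chemokine CXCL2 at -1.75. TNFAIP2 fell by 1.86, and BCL2L1, the survival protein BCL-XL, by 1.67. The 7 that were higher were CCL20, CD83, SOD2, PTGS2, IER3, GADD45B and IRF1, at differences from 0.39 for SOD2 to 1.51 for PTGS2, named after their values were seen. The 5 largest differences among the targets were falls. The even count rests on the scaling and on single arrays. With median centring 2 were higher and 7 lower, against 12.7% and 17.8% of all genes. Without drug 1, and likewise without drug 3, 2 were higher and 6 lower. Over all genes 13.5% were higher and 14% lower without drug 1, and 13.6% each without drug 3. CD83 and PTGS2 passed in 13 of 13 alternatives, CCL20 and GADD45B in 10, IER3 in 7, IRF1 in 6 and SOD2 in 5. On their second probes SOD2 passed, at 0.535 (adjusted p = 0.0144), and IRF1 did not, at 0.58 (adjusted p = 0.0733). Of the 7 lower targets, IL6, which was dim in both groups, passed in 5 of its 12 alternatives and the others in 13 of 13.

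The pattern over the 6 arrays was compared between each gene and the members that changed most, as the root mean square difference of log2 values after each gene's mean had been subtracted. Nearest to NFKB1 were NDC80, a kinetochore protein (0.064), PATZ1, a zinc finger factor (0.073), and TLCD3A (0.0848). Nearest to NFKB2 were RTN2, a reticulon (0.0796), C10orf95 (0.08) and C6orf163 (0.0806). With 6 arrays in 2 groups and 35.1% of genes changed, this measure reflects mainly the size of the step between the groups.

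Facts of the arrays that touch these results are few. The median deposited intensity ran from 376 to 476 over the 6 arrays, and the correlation of log2 values over all probes was 0.978 to 0.990 within a group and 0.948 to 0.958 between groups. Of 11 measured lineage markers of small cell lung cancer, NEUROD1, a defining transcription factor of one subtype, was dim on every array, at 23 to 48 on the control arrays and 19 to 33 on the drug arrays. Of the neuroendocrine markers, CHGB, SYP, NCAM1 and ENO2 were higher, with SYP and ENO2 at differences of 1.06 and 1.09. On its brightest probe NCAM1 read 132 to 164 on the control arrays and 4313 to 5748 on the drug arrays (log2 difference 5.08, adjusted p = 7.23e-06). Its other probes rose less, by 1.99 (adjusted p = 0.000154) and by 1.61 (adjusted p = 0.00333), the latter dim in both groups. The only lower lineage marker, YAP1, typical of cells without neuroendocrine features, had 18837 to 19813 on the control arrays and fell by 2.48 on the log2 scale. The other 6 of the 11, INSM1, NEUROD1, POU2F3, CHGA, DLL3 and GRP, did not pass. Leukocytes are rich in REL and RELB, so blood cell markers were read as well. Of these 11, read from their brightest probes, only CD14 passed, with a rise of 0.76. Their summed intensity was 4267 to 4960 on the control arrays and 5652 to 6377 on the drug arrays. CD14 alone read 1712 to 1908 on the control arrays and 2908 to 3120 on the drug arrays. On its weaker probe CD33 rose by 0.99 (adjusted p = 0.00127), whereas its brightest probe did not pass. PTPRC, which defines leukocytes, was dim on both of its probes in both groups. The summed intensity of 10 fibroblast and endothelial markers was 30277 to 35068 on the control arrays and 9262 to 10739 on the drug arrays. This was mostly through COL1A1, which fell by 2.12, while KDR rose by 1.37. The other 8 did not pass. Of 7 epithelial markers 4 rose, with sums of 127305 to 166365 against 194694 to 213412, almost wholly KRT19, which read 122566 to 160706 against 186223 to 204618. None of the marker probes was at 0, and the part of these shifts in the results was not tested.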

How the data were processed

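Per the labels' protocols, total RNA of each flask was amplified as amino allyl RNA and labelled with Cy5. The table the authors deposited gives linear intensities of 31741 probes on 6 arrays; the background correction and scaling behind them are not stated. Some values, 1431 in all, were below 0. After quantile normalization between arrays, negative values were floored at 0 and log2(intensity + 1) was used. Probe names came from GEO's platform annotation, with older symbols updated through RefSeq synonyms (GRCh38.p14). A single gene was annotated for 24740 probes, several genes for 977, which were left out, and none for 6024. A gene was read from its brightest probe over all arrays. The test of 3 against 3 arrays used limma 3.58.1 under R 4.3.3 (lmFit, eBayes, two-sided, no covariate), tested on simulated data beforehand. The number of arrays limits the precision, and the labels describe separate flasks.

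The members and lists were chosen with earlier results of these data known. Named genes were the 10 members, up to 5 called genes per list with the largest difference and arrays that did not overlap, and the 3 genes nearest in pattern to the largest fall and rise. CHUK, TRAF1, TRAF2, TRAF3, BIRC2, IKBKG, NFKBID, TNFRSF1B, CD40, LTBR, IL18, IL6, TNFRSF11A, TNFRSF12A and TNFRSF13C lie outside that rule. So do the 7 higher targets, the marker genes and those of the probe comparison. Promoter letters were searched 250 bases upstream of RefSeq starts. Alternatives were other scalings, added constants, a filter on dim probes, a variance trend, the mean of a gene's probes and leaving out each array.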

Additional observations from a re-analysis of the deposited data

How the results depend on the processing

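NFKB1, NFKB2, NFKBIA and NFKBIE kept their direction and an adjusted p below 0.05 in all 13 alternatives, from -2.64 to -2.43, from 1.52 to 1.79, from -1.02 to -0.78 and from 0.95 to 1.20. No paired analysis was possible because the groups share no replicate numbers. IKBKB passed with 50 or 16 added (-0.64 in both, adjusted p = 0.032 and 0.0405), above the lower quartile alone (-0.65), with an intensity trend (-0.65) and without control 6; leaving out arrays gave -0.85 to -0.43. TNFAIP3 passed without control 2, and leaving out arrays gave 0.46 to 0.85. RELB passed in no alternative (adjusted p from 0.0697 to 0.295). Members near 0 changed sign without passing: REL was 0.19 with the deposited intensities and 0.058 with median centring, and from -0.12 to 0.11 without single arrays; RELA ran from -0.16 to 0.0061 without single arrays; NFKBIB was -0.066 with median centring and from -0.012 to 0.20 without single arrays. Higher calls in the pathway lists were 9 with median centring and 11 to 18 without single arrays, against 18. The deposited intensities without normalization moved the median difference of all genes to 0.20 and median centring to 0.074, so the values of REL there lie below that shift. Of the 19 list genes named by rule, 17 kept their call in every alternative; NKRF and RNF31 did not. The cause of these changes was not tested. Arrays are 3 per group, background per spot was not used, and differences of dim probes shrink with the constant added.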

Other observations

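Of the 99 pathway genes outside the members, 33 had several probes, and for 24 of them all probes gave the same call. For CCL2, CD40, CFLAR, SOD2, TNFRSF1A, TNFRSF1B and TNFSF14 all probes passed in the same direction. For the rest of the 24, no probe passed. IL1RAP, the shared accessory chain of interleukin 1 receptors, was the only gene among the 33 with called probes of opposite sign. Its brightest probe read 6738, 6566 and 5537 in the control flasks (2, 5 and 6, in that order) and 4886, 4712 and 4167 in the drug flasks (1, 3 and 4), a fall of 0.45 on the log2 scale (adjusted p = 0.0395). Another IL1RAP probe read 666, 696 and 650 against 933, 906 and 932, a rise of 0.46 (adjusted p = 0.0147), and the arrays of the groups did not overlap on either. The fall of IL1RAP kept its call in 6 of 13 alternatives: it was lost with the deposited intensities and without each single array other than control 6, and the mean of its probes gave a difference of 0.17 (adjusted p up to 0.304 over all alternatives). The opposite sign therefore rests on a call near the threshold. The remaining IL1RAP probes did not pass, at differences of 0.63 (adjusted p = 0.0558) and 0.019 (adjusted p = 0.963). On the former of these, all drug arrays lay above all control arrays.

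For AZI2, CCL5, IKBKE, MYD88 and TNFRSF11A the brightest probe did not pass and another did. MYD88, the adaptor of Toll-like and interleukin 1 receptors, had 7193, 7844 and 7760 against 8076, 8619 and 8447 on its brighter probe (log2 difference 0.14, adjusted p = 0.419). The other MYD88 probe gave 2637, 3211 and 3461 against 1237, 1130 and 812, a fall of 1.56 (adjusted p = 0.000862). The transcripts that each probe detects were not examined, so which RNA forms these values follow was not tested.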
